A study of Mus musculus with 4 samples.

Results

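The 42 genes described here are endothelial identity genes, listed by name with earlier results of these data known. They were read from the 55 probes that carry those names on the array. All 42 were on the array, and 38 had a probe well above background on both arrays of at least 1 genotype, out of 18392 such genes in all. Total RNA came from primary kidney tubular cells of 8-week-old male B6.J mice, 2 samples from wild type and 2 from SerpinB2-/- mice, with 150 ng entering the labelling. Every culture in both groups had received PMA at 100 ng/ml, a phorbol ester acting on protein kinase C, so no untreated cells stand beside them. The labels do not say which part of the gene was deleted, nor that the samples came from separate animals or cultures. The p-values below therefore measure the spread between these samples only, and for any 1 gene an exact two-sided permutation of 2 against 2 samples cannot go below p = 0.333.

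Endothelial cells line blood vessels and hold together through junctions built on VE-cadherin, claudin and immunoglobulin-type adhesion proteins. Their identity is set by transcription factors of the ETS, SOX and GATA-partner families, and they respond to angiopoietins, apelin, Slit and Notch ligands through receptors that few other cells make in quantity. In the kidney they form the fenestrated capillaries around tubules, whose pores are closed by a diaphragm of PLVAP, and those of the glomerulus. Several of the genes are not private to this cell type. Haematopoietic cells also transcribe Cd34, Cd93, Stab1, Lyve1, Fli1, Ets1, Tal1, Lmo2 and the Gimap genes.

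The targeted gene separated the groups, with Serpinb2 at 1602 and 1636 scaled units in wild type. The SerpinB2-/- samples gave 2.73 and 3.69, not well above background (at least 139.7-fold lower, adjusted p = 0.0007 for the fitted change). A scaled unit is the scanner's processed signal with each array's 75th percentile set to 1000, and units of different probes are not comparable. The median absolute log2 difference was 0.08 between arrays of 1 genotype and 0.14 to 0.16 between genotypes. All 4 arrays lay on 1 slide, the wild type arrays in the first positions, and position and genotype cannot be told apart. Of all genes tested, 15.7% passed the threshold of 0.05 after Benjamini-Hochberg adjustment in limma, 9.67% lower and 6.01% higher in SerpinB2-/- cells (1779 and 1105 genes, and 1245 and 4338 where arrays were scaled to their medians).

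Most of the 38 measured members had lower signal in SerpinB2-/- cells, but they were listed with earlier results of these data known. Of 79 other measured endothelial genes 22 fell and 6 rose, with a median of -0.04. Their lists were not limited to genes private to endothelium. Of the 38 measured members 29 fell and 1, Lyve1, rose, against 9.67% lower and 6.01% higher over all genes, and 8 did not pass. The median log2 change was -1.03, against 0.01 for all genes tested. In 34 members both SerpinB2-/- samples lay below both wild type samples, in 3 both lay above, and in 1 the groups overlapped, where 31.9% of all genes lay below without overlap and 32.5% above. A fitted fall of at least 2-fold that passed was seen in 18 members, against 1.22% of all genes. With normexp background correction it was seen in 9 members and 0.402% of all genes. Tie1, Gimap1 and Gimap5 are among the 18 but were not well above background on all SerpinB2-/- arrays. With only probes well above background on all 4 arrays, 26 of 33 members fell, against 9.88% of all genes. In that setting 15 members passed with a fall of at least 2-fold, against 0.968% of all genes. Fewer of the 18 passed when either wild type replicate was left out. The members' median was -1.09 without wild type replicate 1 (0.006 for all genes). It was -0.975 without wild type replicate 2 (0.001 for all genes). The count of 29 fell to 9 without wild type replicate 1 and to 7 without wild type replicate 2, where 3.28% and 2.91% of all genes were called lower. In bulk RNA, fewer cells of a type and less RNA per cell cannot be told apart.

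**Figure D1:**
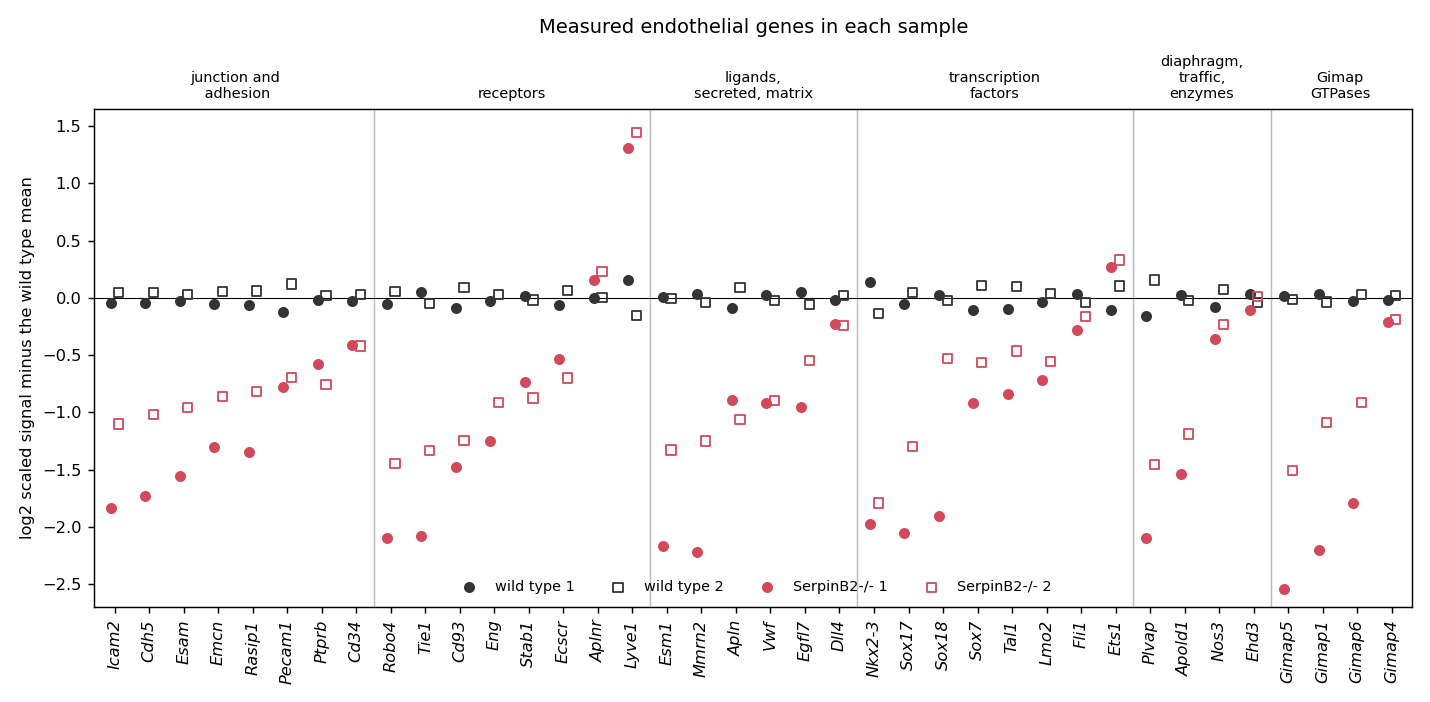
Signal of each of the 38 measured endothelial genes in every sample, as log2 scaled signal minus the mean of the 2 wild type samples (y axis), with genes ordered by role and change (x axis). Filled circles are sample 1 and open squares sample 2, black for wild type and red for SerpinB2-/-. The red symbols lie below the black ones in 34 genes and above them in 3, where 31.9% of all genes lay below and 32.5% above.

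The labels call the samples tubular cells and name no vessel cell. The epithelial keratins Krt7 and Krt19 were well above background in all samples, and 17 of the 21 tubular and general epithelial markers were measured. The 4 that were not are Umod, Slc12a1, Slc12a3 and Calb1, of the loop and distal tubule. Of the blood vessel markers, Pecam1, Cdh5, Emcn and Tie1 were well above background in wild type cells. Tek, the angiopoietin receptor, Clec14a, an endothelial lectin, and Erg, the ETS factor of resting endothelium, were not well above background on any array. The tight junction claudin Cldn5 lay at 12.96 and 15.01 units in wild type against 11.08 and 11.58 in SerpinB2-/- cells, and passed on 1 of the 4 arrays only. Just inside the filter lay the Notch ligand Dll4, at 18.19 and 18.77 units in wild type against 15.73 and 15.64 in SerpinB2-/- cells, well above background on 3 arrays.

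Promoter windows are shown for 5 members chosen by the size of their fitted fall. Whether these windows bear on the falls was not tested. The 5 had the largest fitted falls among members with a window. Gimap5 and Tie1 were not well above background on all SerpinB2-/- arrays, so the size and rank of their falls were not measured. The RefSeq table of build GRCm38.p6 held a window for 23 of the 42 members, and 19 of the 38 measured ones. Each run below is the 250 bases before the start of transcription on the gene's own strand, and capitals mark the ETS-family motif AGGAAG on either strand. Ehd3, an endocytic ATPase of glomerular endothelium that did not pass the test, stands last and was chosen for comparison after its values were seen. The windows lie at chr6:48745947-48746196 (plus strand), chr19:43612075-43612324 (plus), chr9:37401722-37401971 (plus), chr13:113209409-113209658 (plus), chr4:118489850-118490099 (minus) and chr17:73804591-73804840 (plus).
Gimap5: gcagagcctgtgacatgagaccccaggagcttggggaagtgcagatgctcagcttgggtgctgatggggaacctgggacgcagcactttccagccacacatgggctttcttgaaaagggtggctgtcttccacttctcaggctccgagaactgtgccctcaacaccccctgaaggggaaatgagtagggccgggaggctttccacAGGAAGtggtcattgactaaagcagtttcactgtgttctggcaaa
Nkx2-3: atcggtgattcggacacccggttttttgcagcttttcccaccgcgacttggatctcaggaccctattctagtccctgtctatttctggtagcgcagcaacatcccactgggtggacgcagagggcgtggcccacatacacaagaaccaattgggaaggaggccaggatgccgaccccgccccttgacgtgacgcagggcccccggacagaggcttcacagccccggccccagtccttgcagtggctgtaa
Robo4: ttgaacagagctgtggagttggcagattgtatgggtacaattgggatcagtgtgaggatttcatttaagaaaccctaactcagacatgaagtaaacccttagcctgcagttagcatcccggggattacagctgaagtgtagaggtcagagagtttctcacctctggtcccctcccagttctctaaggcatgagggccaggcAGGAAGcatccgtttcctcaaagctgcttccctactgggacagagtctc
Esm1: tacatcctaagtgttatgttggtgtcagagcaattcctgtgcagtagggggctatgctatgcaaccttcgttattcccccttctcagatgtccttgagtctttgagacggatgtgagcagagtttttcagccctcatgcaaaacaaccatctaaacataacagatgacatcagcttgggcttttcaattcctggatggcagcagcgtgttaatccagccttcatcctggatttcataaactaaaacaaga
Tie1: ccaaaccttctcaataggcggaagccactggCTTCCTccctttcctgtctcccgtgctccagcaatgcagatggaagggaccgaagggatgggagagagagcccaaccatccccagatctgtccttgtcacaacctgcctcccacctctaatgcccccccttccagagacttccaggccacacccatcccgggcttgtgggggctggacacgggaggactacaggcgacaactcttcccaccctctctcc
Ehd3: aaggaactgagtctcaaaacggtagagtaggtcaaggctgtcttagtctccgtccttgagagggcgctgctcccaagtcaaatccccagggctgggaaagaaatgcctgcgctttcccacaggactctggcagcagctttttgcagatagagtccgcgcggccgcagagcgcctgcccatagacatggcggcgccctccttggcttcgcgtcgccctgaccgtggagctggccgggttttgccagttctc

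AGGAAG was present in the windows of Gimap5, Robo4 and Tie1 and absent from those of Nkx2-3, Esm1 and Ehd3. Of the 19 measured members with a window 13 held it, and of the 16 that had fallen 12. Some genes have several windows. Counted by window it was 14 of 22, where 29.5% of all 32851 windows held it. The other ETS motif searched, CCGGAA, was in 0 of the 19, against 12.0% of all windows. The SOX motifs AACAAT and ACAAAG were in 1 and 3 of the 19 (9.42% and 16.5% of all windows), the GATA motif AGATAA in 1 (9.99%) and the KLF motif CACCC in 9 (52.0%). All motifs were searched on both strands, and a window was scored once per motif. The ETS motifs share a core, and 38.2% of all windows held at least 1 of them. A match is a string of letters and not a binding site.

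Junction and adhesion genes were the role in which each measured member fell, 8 of 8, where 9.67% of all genes were called lower. Their median was -1.08 and their range from -1.47 to -0.42. Cdh5, which encodes VE-cadherin, the adhesion protein of endothelial junctions (probe at chr8:106668159-106668218, mm9), gave 382 and 408 units in wild type against 119 and 195 in SerpinB2-/- cells. That is a fall of 1.37 ± 0.24 on the log2 scale (SE, n = 2 per genotype, adjusted p = 0.0269). The leukocyte ligand Icam2 (chr11:106238971-106239030) gave 209.8 and 224 units in wild type against 60.7 and 100.9 in SerpinB2-/- cells, a fall of 1.47 ± 0.24 (adjusted p = 0.0253). The junctional immunoglobulin protein Esam gave 349.7 and 364 against 121 and 184 (-1.26 ± 0.20). In these 3 genes SerpinB2-/- sample 1 lay lowest and sample 2 between it and wild type.

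The sialomucin Emcn gave 442 and 478 units in wild type against 186 and 253 in SerpinB2-/- cells (-1.08 ± 0.16). Rasip1, a Rap1 effector needed for vessel lumens, changed by -1.08 ± 0.18. Pecam1, the platelet and endothelial adhesion molecule, gave 56.8 and 67.1 units against 36.1 and 38.1 (-0.74 ± 0.10, adjusted p = 0.0159). The vascular phosphatase Ptprb, which binds VE-cadherin, gave 4484 and 4617 against 3048 and 2687 (-0.67 ± 0.08). Cd34, a sialomucin shared with blood progenitors, went from 1695 and 1768 to 1301 and 1293 units (-0.42 ± 0.06, adjusted p = 0.0177). Falls within this 1 role thus differed by 1.05 on the log2 scale. The samples of the genotypes overlapped in none of the 8, where 31.9% of all genes lay below without overlap.

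Receptors ranged from -1.77 to 1.37 (3.14 log2 units over 8 measured genes). Of the 8, 6 fell, 1 rose and 1 did not pass, with a median of -0.94. Over all genes 9.67% were called lower and 6.01% higher. Robo4, the endothelial receptor of the Slit receptor family (chr9:37221547-37221606), gave 479 and 515 units in wild type against 116 and 183 in SerpinB2-/- cells. It fell by 1.77 ± 0.22 (3.41-fold, adjusted p = 0.0138). Cd93, a C-type lectin receptor that binds the matrix protein multimerin-2, was at 3604 and 4098 units against 1377 and 1618 (-1.36 ± 0.11, adjusted p = 0.00755). The TGF-beta co-receptor Eng gave 345 and 359.5 against 148 and 187 (-1.08 ± 0.12). The genotypes did not overlap in any of these receptors, where 31.9% of all genes lay below without overlap.

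Tie1, the orphan partner of the angiopoietin receptor, lay near the detection limit, at 38.8 and 36.3 units in wild type against 8.90 and 14.9 in SerpinB2-/- cells. Of the SerpinB2-/- arrays 1 had it well above background, and with the other at its limit the change was -1.52. With outlier spots kept, the fitted change of Tie1 was -1.44 and did not pass (adjusted p = 0.0873). The scavenger receptor Stab1 gave 563 and 548 units against 334 and 303 (-0.80 ± 0.07), and the chemotaxis regulator Ecscr 1324 and 1451 against 958 and 853 (-0.62 ± 0.09). Both had their lowest value in SerpinB2-/- sample 2, unlike Cdh5 or Robo4. The apelin receptor Aplnr gave 25.7 and 25.9 against 28.7 and 30.3 (0.19 ± 0.06, adjusted p = 0.0980) and did not pass. The log2 change of Aplnr was 0.34 with quantile normalization (adjusted p = 0.0265) and 0.33 with median scaling (adjusted p = 0.0208), where it passed.

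Lyve1 was the exception among the members. This hyaluronan receptor of lymphatic endothelium and of some macrophages gave 33.2 and 26.9 units in wild type against 73.8 and 81.2 in SerpinB2-/- cells. It rose by 1.37 ± 0.12 (2.59-fold, adjusted p = 0.00801), with both SerpinB2-/- samples above both wild type samples, as in 32.5% of all genes. With normexp the log2 change of Lyve1 was 0.83 (adjusted p = 0.00478). Of the other lymphatic genes measured none rose. Prox1, the factor that defines that lineage, was not well above background on any array, and Reln, Mmrn1 and Ccl21a were not measured either. The lymphatic receptor Flt4 fell by 0.50 ± 0.08 (adjusted p = 0.0205), and podoplanin, Pdpn, which epithelial and stromal cells also make, was at 0.07 ± 0.06 (adjusted p = 0.412).

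Of the 6 ligands and secreted or matrix proteins 5 fell, against 9.67% of all genes. Their median was -0.94 and their range from -1.75 to -0.24. Esm1, or endocan, a proteoglycan secreted by endothelial tip cells (chr13:114008204-114008263), gave 15510 and 15390 units in wild type against 3449 and 6149 in SerpinB2-/- cells (-1.75 ± 0.27, 3.35-fold, adjusted p = 0.0218). Mmrn2, or multimerin-2, the matrix ligand of CD93, gave 937 and 889 against 195.5 and 384 (-1.74 ± 0.32, adjusted p = 0.0309). The SerpinB2-/- samples of both genes differed from each other by more than the wild type samples did. Apln, the peptide ligand apelin, gave 1548 and 1753 units against 888 and 788 (-0.98 ± 0.10). Vwf, von Willebrand factor, gave 121.7 and 118 against 63.4 and 64.6 (-0.91 ± 0.06), and the secreted angiogenic factor Egfl7 fell by 0.75 ± 0.15. Dll4 did not pass (-0.24 ± 0.06, adjusted p = 0.0547).

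**Figure D2:**
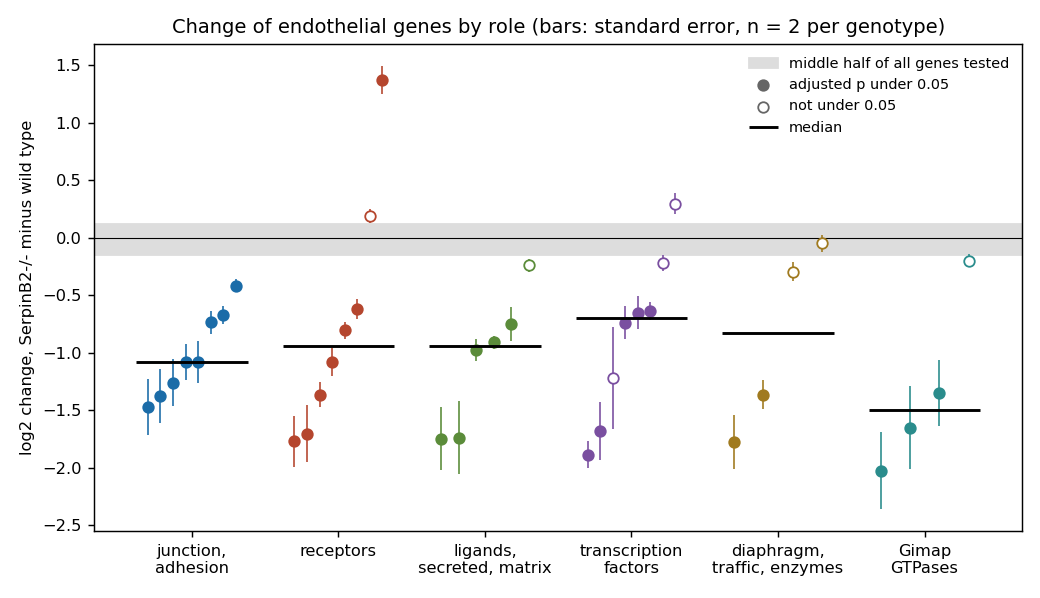
Log2 change from wild type to SerpinB2-/- (y axis) of the 38 measured endothelial genes by role (x axis), with the standard error as bars (n = 2 per genotype). Filled points passed an adjusted p of 0.05, black lines are medians, and the grey band is the interquartile range of all 18392 genes. Filled and below it are 8 of 8 junction genes and 5 of 8 transcription factors, where 9.67% of all genes were called lower.

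Of the 8 measured transcription factors 5 fell, against 9.67% of all genes, with a median of -0.69 and a range from -1.89 to 0.30. Nkx2-3, a homeobox factor of gut and spleen vessels (chr19:43689699-43689757), gave 139.5 and 116 units in wild type against 32.2 and 36.7 in SerpinB2-/- cells. Its change of -1.89 ± 0.12 (3.70-fold lower, adjusted p = 0.00704) became -1.21 with normexp. Sox17, Sox18 and Sox7 form the SOX F family, which acts in arterial and lymphatic specification. Sox17 (chr1:4481503-4481562) gave 58.4 and 62.6 units against 14.6 and 24.6 (-1.68 ± 0.25, adjusted p = 0.0198). Sox7 gave 34.7 and 40.2 against 19.8 and 25.3 (-0.74 ± 0.14, adjusted p = 0.0352).

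Sox18 gave 37.9 and 36.6 units in wild type against 9.93 and 25.8 in SerpinB2-/- cells, where it was well above background on 1 array. Its change of -1.22 ± 0.45 did not pass (adjusted p = 0.132), although the groups did not overlap (31.9% of all genes lay below without overlap). The log2 change of Sox18 passed without SerpinB2-/- replicate 1 (-0.53, adjusted p = 0.0344) and without SerpinB2-/- replicate 2 (-1.91, adjusted p = 0.00626), where the lone sample is taken to vary like wild type. Tal1 and Lmo2, partners in a complex of blood and vessel progenitors, fell by 0.65 ± 0.15 and 0.64 ± 0.08 (adjusted p = 0.0477 and 0.0138). The measured ETS factors did not pass. Fli1 gave 77.0 and 73.1 units against 61.9 and 66.9 (-0.22 ± 0.07, adjusted p = 0.0979), and Ets1, which many cell types make, gave 1206 and 1391 against 1558 and 1630 (0.30 ± 0.09, adjusted p = 0.0868). Erg, the remaining ETS member, was not measured.

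Among the 4 genes of diaphragm, membrane traffic and enzymes, 2 fell, against 9.67% of all genes. Plvap, the diaphragm protein of fenestrated capillaries (chr8:74021877-74021936), gave 746 and 926 units in wild type against 194 and 303 in SerpinB2-/- cells (-1.78 ± 0.23, 3.42-fold, adjusted p = 0.0156). Apold1, an early response gene of endothelium, gave 53.9 and 52.2 units against 18.3 and 23.3 (-1.36 ± 0.13, adjusted p = 0.00849). The other 2 did not pass. Nos3, endothelial nitric oxide synthase, was at -0.29 ± 0.08 (adjusted p = 0.0795), and Ehd3 gave 339 and 322 units against 306 and 333 (-0.05 ± 0.07, adjusted p = 0.669, and 0.09 with median scaling). Ehd3 was the 1 member whose groups overlapped.

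The Gimap genes encode GTPases of immunity-associated proteins, best known from lymphocytes, and 3 of the 4 members fell, against 9.67% of all genes. Their probes lie within 62.2 kb of chromosome 6 (48641312 to 48703560, mm9). Gimap5 gave 36.6 and 35.9 units in wild type against 6.24 and 12.7 in SerpinB2-/- cells. Neither array of that genotype was well above background, so Gimap5 was at least 2.998-fold lower. Its adjusted p of 0.0250 belongs to the change fitted to those dim signals and not to this limit. Gimap1 gave 42.6 and 40.5 against 9.01 and 19.5, well above background on 1 SerpinB2-/- array. With the other at its limit the change was -1.47, which was not tested. The adjusted p of Gimap1, 0.0458, belongs to the fitted change of -1.65. Gimap6 gave 114 and 119 against 33.6 and 61.7 (-1.35 ± 0.29, adjusted p = 0.0426). With limits in place of fitted values the median of the 4 was -1.41, and with normexp it was -0.65. The calls depended on the processing: Gimap1 and Gimap6 did not pass with quantile normalization (adjusted p = 0.0665 and 0.06, log2 change of Gimap1 -1.51, log2 change of Gimap6 -1.23), nor Gimap1 with the authors' deposited table (adjusted p = 0.0566). Gimap1 and Gimap6 did not pass without wild type replicate 1 (adjusted p = 0.138 and 0.123) or without wild type replicate 2 (0.13 and 0.132). The log2 change of Gimap5 did not pass in these fits either (adjusted p = 0.087 and 0.0853).

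Gimap4 was at -0.20 ± 0.06 (adjusted p = 0.0784) at its brightest probe. With its usable probes averaged, Gimap4 was at -0.75 and passed (adjusted p = 0.0159), so its call rests on the choice of probe. Other genes of the family did not pass. Gimap8 gave 88.7 and 91.8 units against 63.0 and 78.7 (-0.36 ± 0.12, adjusted p = 0.107), Gimap9 gave 370 and 354 against 385 and 385 (0.09 ± 0.06, adjusted p = 0.344), and Gimap3 and Gimap7 were not well above background on any array.

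Where a member had 2 usable probes, the probes could be set against each other. This held for 7 members, and in 6 both probes had the same sign. Plvap (-1.78 and -1.07), Sox17 and Apold1 passed at both, the dimmer probes of Sox17 and Apold1 being at least 2.81-fold and 1.54-fold lower. For Ptprb the dimmer probe was at -0.44 and did not pass, and for Nos3 it was at -0.53 and passed. The Gimap4 probes differed in their call. The brightest, at chr6:48641312-48641371, was at -0.20, while that at chr6:48641817-48641876 (29.8 and 28.0 units in wild type), was not well above background in SerpinB2-/- cells and at least 2.28-fold lower. Ets1 was at 0.30 and -0.17, neither passing.

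**Figure D3:**
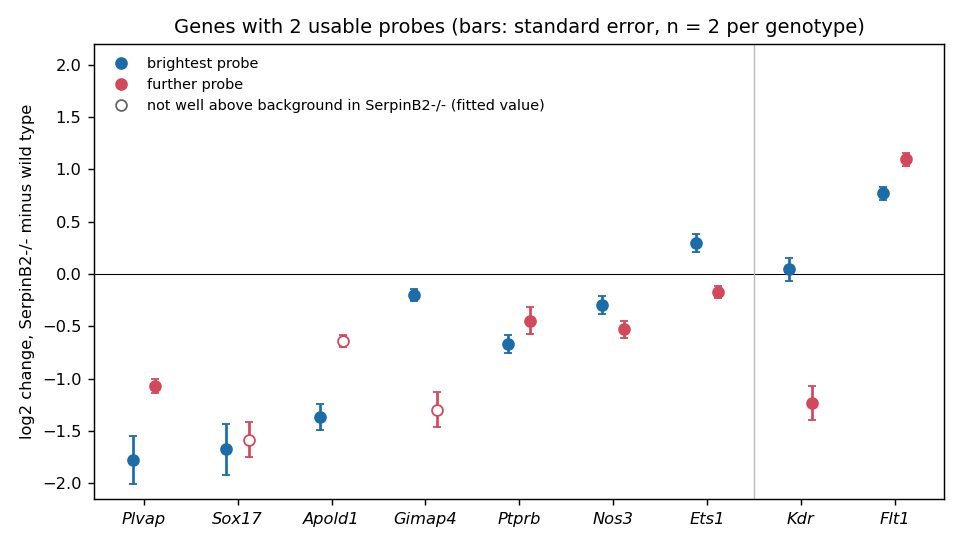
Log2 change (y axis, bars are standard errors, n = 2 per genotype) at the brightest probe (blue) and the further usable probe (red) of the 7 endothelial members with 2 usable probes, and of the VEGF receptors Kdr and Flt1 to the right of the line. Open points were not well above background on any SerpinB2-/- array and are drawn at fitted values; the probes of Gimap4 (-0.20, and at least 2.28-fold lower), Ets1 and Kdr (0.05 and -1.24) lie far apart.

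Of the VEGF receptors, which sit at the head of endothelial growth signalling, Flt4 fell, as given above, Flt1 rose and Kdr did not pass. Kdr, the main signalling receptor, gave 2486 and 2116 units against 2218 and 2528 (0.05 ± 0.11, adjusted p = 0.800) at chr5:76330395-76330454. A further Kdr probe, at chr5:76329309-76329368, gave 239 and 248 against 87.6 and 122 (-1.24 ± 0.16, adjusted p = 0.0143 over all probes). Which of the 2 reads Kdr was not tested. Flt1, the decoy receptor, rose at both its usable probes (0.77 ± 0.06 and 1.10 ± 0.06).

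Beyond the 42 members, other endothelial genes were read in the same way. Over 5 lists with 92 genes, 79 were measured, of which 22 fell, 6 rose and 51 did not pass. Of all genes 9.67% fell and 6.01% rose. The median of the 79 was -0.04, against -1.03 for the members. These lists were not limited to genes private to endothelium, and Aqp1 and Podxl also stand in the epithelial and podocyte lists. In angiopoietin, Notch and BMP9 signalling 4 of 21 fell and 2 rose. Angpt2, the ligand that antagonises Tek and is stored in endothelial granules, gave 1417 and 1440 units against 462 and 679 (-1.35 ± 0.19). The receptor Notch4 fell by 0.60 ± 0.12 and the BMP9 receptor Acvrl1 by 0.38 ± 0.07, and the Notch target Hey2 rose by 0.75 ± 0.09. Notch1 and the arterial ligand Efnb2, which epithelia make as well, were at 0.10 ± 0.13 and 0.12 ± 0.06 and did not pass.

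Among 36 measured genes of the vessel wall list 12 fell and 2 rose. The adhesion receptor Adgrl4 changed by -1.64 ± 0.32, Ccm2l, a regulator of vessel integrity, by -1.42 ± 0.06, the fatty acid carrier Fabp4 by -1.26 ± 0.26 and the adaptor She by -1.07 ± 0.18. Of 15 measured factors 5 fell and 1 rose. Meox1 was at least 2.61-fold lower, Lyl1, a relative of Tal1, fell by 1.03 ± 0.22, and Gata2 and Hhex fell by 0.49 ± 0.08 and 0.46 ± 0.09. The shear-responsive Klf2 was at 0.15 ± 0.09 (adjusted p = 0.301).

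The SerpinB2-/- samples differed from each other in the endothelial genes. Sample 1 lay below sample 2 in 32 of the 38 measured members, against 55.4% of all genes, with a median log2 difference, sample 2 minus sample 1, of 0.34 against 0.02. Over the same members that median was 0.06 between the wild type samples. The order of the SerpinB2-/- samples was not particular to the members. Sample 1 lay below sample 2 in 14 of 17 measured epithelial genes, with a smaller median difference of 0.10. The same held in 12 of 15 further endothelial and blood transcription factors, with a median of 0.15. Among the 29 members that fell, 24 were lower in sample 1, by up to 0.97 (Mmrn2) in those well above background on all 4 arrays. Tie1, Gimap1 and Gimap5 are among the 24 and were not, and their differences have no measured size. The other 5 were Ptprb, Cd34, Stab1, Ecscr and Apln, where sample 2 lay lower by at most 0.18.

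Markers of other cell types differed in the same samples. Of 16 measured leukocyte and platelet markers 9 fell and 0 rose, with a median of -0.54, among them Pf4 (-1.58 ± 0.09), Coro1a (-1.02 ± 0.10), Laptm5 (-0.88 ± 0.19), Adgre1 (-0.71 ± 0.12) and Ptprc (-0.51 ± 0.08). Their summed signal, in which the brightest probes weigh most, was 21770 and 20090 units in wild type against 14720 and 13940 in SerpinB2-/- cells. Units of different probes are not comparable, so such a sum is not an amount of cells. The listed markers that were not measured include Spi1, Ikzf1, Itga2b and Gp9. Sample 1 lay below sample 2 in 4 of these 16, the opposite order to that of most endothelial genes. Their part in the lower endothelial signal was not tested.

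**Figure D4:**
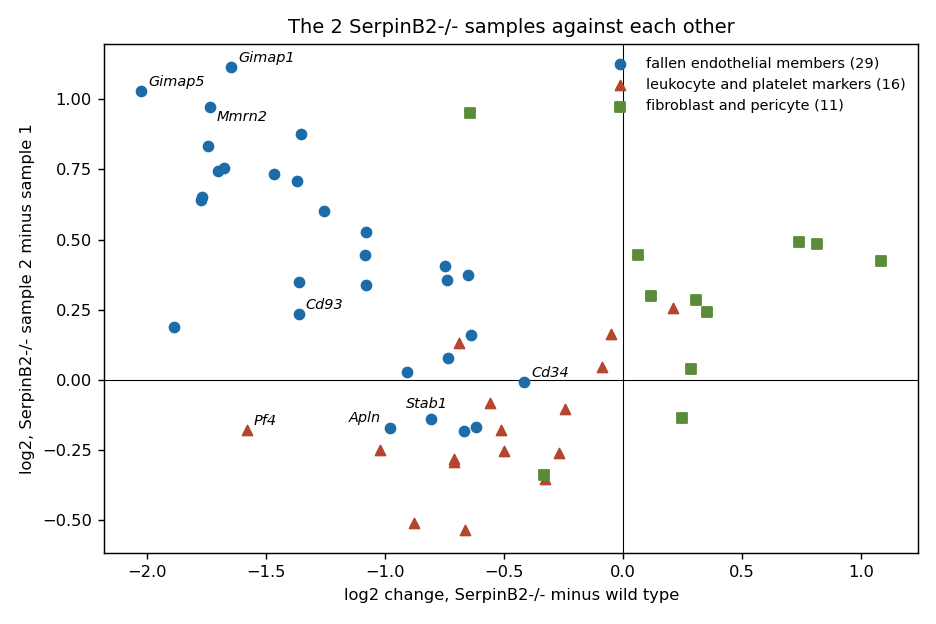
Difference between the 2 SerpinB2-/- samples (y axis, log2, sample 2 minus sample 1) against the change from wild type (x axis, log2) for the 29 endothelial members that fell (circles), 16 leukocyte and platelet markers (triangles) and 11 fibroblast and pericyte genes (squares). Both axes share the SerpinB2-/- samples; 24 of the 29 circles lie above 0, and 4 of the 16 triangles do.

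Epithelial and stromal markers were read beside them. Of 17 epithelial genes 7 fell and 1 rose, with a median of -0.23 and with Krt7, Cdh1, Krt19 and Epcam at -0.82 ± 0.07, -0.79 ± 0.06, -0.77 ± 0.06 and -0.58 ± 0.12. Their summed signal, again not an amount of cells, was 308000 and 309600 units in wild type against 239500 and 251300 in SerpinB2-/- cells. Of 11 fibroblast and pericyte genes 2 rose, Postn by 1.09 ± 0.16 and Col3a1 by 0.81 ± 0.17, 0 fell, and Pdgfrb was at 0.74 ± 0.18 (adjusted p = 0.0565). The summed signal of these 11, with the same limit, was 175500 and 142500 units in wild type against 183900 and 213500 in SerpinB2-/- cells. Lum and Rgs5 were not measured, and sample 1 lay below sample 2 in 9 of the 11. Of 5 podocyte and mesangial genes Wt1 rose by 0.80 ± 0.14 and Gata3 fell by 0.78 ± 0.08, and the podocyte gene Nphs1 was at -0.06 ± 0.06. Whether these shifts bear on the endothelial genes was not tested.

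Falls of dim genes were smaller with normexp background correction and its offset of 50 units, which were changed together and not separated. With both, 27 of the 38 members fell, and the median became -0.65. For 12 of the 29 members that fell, the fall was over 1.5 times smaller. In the fit Tie1 was then at -0.63, Sox17 at -0.82, Gimap5 at -0.67, Gimap1 at -0.64, Apold1 at -0.66 and Nkx2-3 at -1.21. Sox7 (-0.33, adjusted p = 0.101) and Tal1 (-0.27, adjusted p = 0.159) no longer passed. Brighter members moved little, with Esm1 at -1.73, Cd93 at -1.36 and Ptprb at -0.67.

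**Figure D5:**
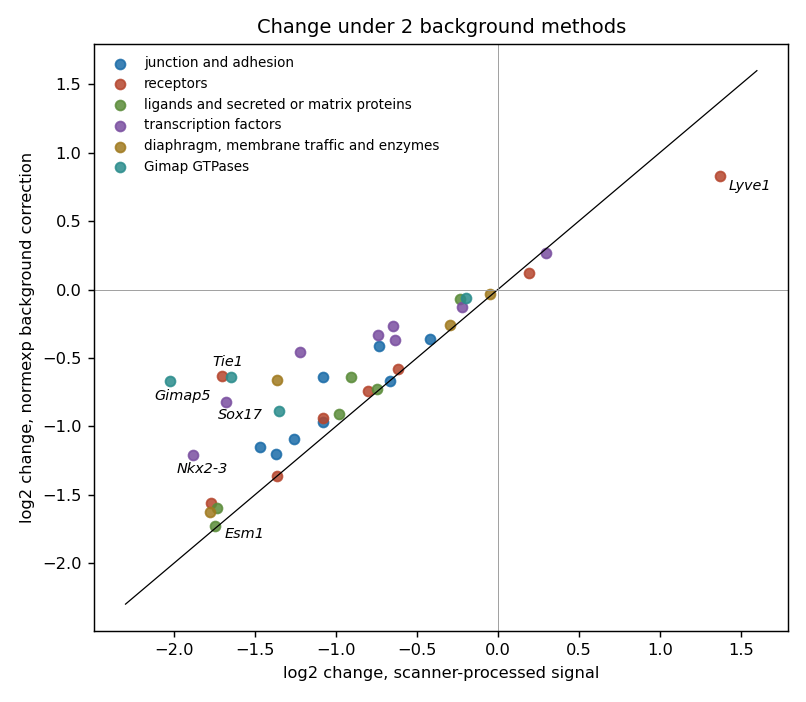
Log2 change of the 38 measured endothelial genes with normexp background correction (y axis) against that with the scanner's processed signal (x axis), coloured by role, with the line of equal change. Bright genes such as Esm1 (-1.73 and -1.75) lie on the line, and dimmer ones such as Nkx2-3 (-1.21 and -1.89) lie above it. Tie1, Dll4, Sox18, Gimap1 and Gimap5 are drawn at fitted values although at least 1 SerpinB2-/- array was not well above background.

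A group of 7 members that fell passed in all 14 alternatives other than keeping dim probes and the unmoderated test. They were Pecam1, Cd93, Stab1, Vwf, Apln, Nkx2-3 and Apold1, and the same 7 were those called in each of the 4 fits that left out 1 array. Their standard errors lay between 0.06 and 0.13. Cdh5, Robo4, Esm1, Mmrn2 and Sox17, with larger differences between the SerpinB2-/- samples, had 0.22 to 0.32. These lost the call when either wild type array was left out. Ptprb, Ecscr and Lmo2, with small standard errors of 0.08, 0.09 and 0.08, lost it there as well. Cd34, at 0.06, lost it in each of the 4 fits. Lyve1 passed in the same 14 alternatives.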

How the data were processed

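Labelled RNA from 4 samples was hybridised to 1-colour Agilent arrays, 1 sample each. The deposited intensity values were made by Agilent Feature Extraction 10.7.3.1, per the file headers, with spatial and multiplicative detrending and surrogates for dim spots. Build mm9 is named there. The authors' deposited table holds scaled intensity (column medians 76, 77, 68 and 71, each 75th percentile 1500, no gene centring found, direction not in question, scaling method not given in the sources used here) and served as an alternative.

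Control and outlier spots were left out, the 4 spots of a probe were averaged as log2, and each array's 75th percentile was subtracted. A probe was used if over 50% of its spots were well above background on both arrays of 1 genotype, and the brightest stood for its gene. No spot was saturated, and 23409 to 24476 probes per array were well above background. The number of arrays limits the precision. Names followed a GRCm38.p6 table (28328 probes by accession, 3400 by symbol, 243 by older symbol, 7458 kept). Limma 3.58.1 in R 4.3.3 compared SerpinB2-/- with wild type over all genes (threshold 0.05, Benjamini-Hochberg). A fold is given as at least N where a group was not well above background, from the lowest detected signal on each array. Such limits were not tested, and the adjusted p of these genes is that of the fitted change. With 200 genes changed in simulated data of 18392 genes, 99% of 2-fold and 100% of 4-fold changes were recovered. Of 218 calls 19 were false. The simulated noise was drawn from the fitted variances independently for each gene, and fewer genes changed than were called in these data. The recovery therefore does not carry over to these samples, where genes shifted together.

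The members and lists were chosen with earlier results of these data known. All 42 members, Serpinb2, the strongest called genes of each other list (up to 4) and a fixed set of receptors and markers were named. Alternatives covered background, scaling, filters, probes, outlier spots, the fit, the replicate number as a block, and each array left out. Protein sequences were not used here.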

Additional observations from a re-analysis of the deposited data

How the results depend on the processing

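The median log2 change of the 38 measured members, -1.03, stayed below 0 in all 16 alternatives and was -0.65 with normexp, -0.90 with median scaling, -0.91 with only probes well above background on all 4 arrays, and -1.10 to -0.87 with 1 array left out. With median scaling all genes had a median of 0.14, and relative to it the members stayed at -1.03. The genes called over the array, 2884, numbered 5583 with median scaling (1245 lower and 4338 higher), 3 with dim probes kept, 0 with the unmoderated test and 753 to 1579 with 1 array left out. The members called lower, 29, numbered 25 to 31 in the other 10 alternatives that kept all arrays, 0 in limma with dim probes kept (35 at an unadjusted p under 0.05, 5765 genes in all), 0 with the unmoderated test (19 unadjusted, 4442 genes in all), and 7 to 29 with 1 array left out. Both low counts, 9 and 7, came from leaving out a wild type array. The members below 0 numbered 34 or 35 of 38 in the alternatives that tested 38.

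Same-numbered samples share only a number, and the labels give no pairing. Their deviations correlated at 0.262 over genes, and with the replicate number as a block 30 members were lower and 2143 genes were called. The added member was Sox18: the log2 change of Sox18 stayed at -1.22 and passed with the block (adjusted p = 0.0494). Signs turned for some genes that did not pass. Ehd3 was at 0.09 with median scaling and at -0.11 to 0.01 with 1 array left out, the highest without SerpinB2-/- replicate 1. Nphs1 was at 0.01 with normexp and at 0.08 with quantile normalization and with median scaling. When a gene's probes were averaged, the log2 change of Efnb2 was -0.11 and the log2 change of Kdr was -0.59 (adjusted p = 0.0404). With 1 array left out Kdr ranged from -0.07 to 0.16 and Notch1 from -0.09 to 0.29. The lowest signal well above background, 11.5 to 12.4 units by array, limits the falls that could be measured in dim members. Some probes with higher signal were not well above background, so it is an approximate limit.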
